A study of Mus musculus with 12 samples.

Results

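A set of 10 genes of metal binding and antioxidant defense were followed in mouse tibialis anterior (TA) muscles that expressed the human long noncoding RNA *FRAIL1*: the metallothioneins *Mt1* and *Mt2*, heme oxygenase *Hmox1*, the quinone reductase *Nqo1*, the glutamate-cysteine ligase subunits *Gclc* and *Gclm*, thioredoxin reductase *Txnrd1*, sulfiredoxin *Srxn1*, the extracellular glutathione peroxidase *Gpx3* and the mitochondrial superoxide dismutase *Sod2*. They were chosen by name, with earlier results of these data known. All 10 were found among the 27179 genes of the count table by their NCBI Gene ID, and all 10 passed the expression filter with which 15502 genes were tested. No member was low: the smallest count of any of them in any muscle was 139, for *Nqo1*.

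The experiment used 6 wild-type male C57BL/6N mice, obtained at 6 to 8 weeks of age. In each mouse the TA of one leg received 10 μg of empty pcDNA3 plasmid (Control muscles) and the TA of the other leg received 10 μg of plasmid carrying full-length human *FRAIL1* behind the cytomegalovirus promoter (*FRAIL1* muscles), and both were taken after 7 days. Hyaluronidase injection, plasmid injection, electroporation and harvest were thus shared by both groups. Plasmid uptake was not compared between them here, and a transfected muscle holds fibers with and without the plasmid. Polyadenylated RNA of whole muscle was sequenced, giving between 44848322 and 60527385 counts a muscle. *FRAIL1* itself is not among the mouse genes counted, so its level was not checked here. Of the labelled tissue's defining markers, all 8 skeletal muscle fiber were measured, with sums of 173900 to 203100 library-scaled counts (CPM) in Control and 132600 to 186400 CPM in *FRAIL1* muscles. *FRAIL1* muscle 5 stood apart from the other muscles, with a TMM scaling factor of 1.19. In the other *FRAIL1* muscles the factor was 0.965 to 1.07 and in Control muscles 0.935 to 0.983, so it also tended to be higher with *FRAIL1*. For several genes and lists, values without *FRAIL1* muscle 5 or without both muscles numbered 5 are also given.

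Metallothioneins are small cysteine-rich proteins that hold zinc and copper. Their genes are switched on by the zinc sensor MTF1 at metal response elements and also respond to glucocorticoids, and they are known to rise in several forms of muscle wasting. The other members, apart from *Gpx3* and *Sod2*, are textbook targets of NRF2 (encoded by *Nfe2l2*), a transcription factor that KEAP1 holds for degradation until electrophiles or oxidants modify KEAP1. NRF2 then binds antioxidant response elements with small MAF proteins, and BACH1 represses part of the same genes, *Hmox1* above all. The comparison asks whether transcripts of these defenses differed between muscles with and without *FRAIL1*.

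The gene starts of *Mt1* and *Mt2*, whose levels went together from muscle to muscle, and of *Srxn1* and *Txnrd1*, which hold the letters of the antioxidant response element, illustrate what the names metal response and antioxidant response refer to. Windows of 250 bases before and 30 bases after the gene start were taken from RefSeq (GRCm38.p6) for 8 of the 10 members and searched on both strands for the core of the metal response element (TGCACNC or TGCGCNC) and that of the antioxidant response element (TGACNNNGC or TGAGNNNGC). Capitals mark the matches. The *Mt1* window (chr8:94178839-94179118, plus strand) held 3 metal response cores at the start RefSeq's table gives it, which lies inside the gene's full span, and that of *Mt2* (chr8:94172368-94172647, plus strand) held 4 of them and 1 antioxidant response core. The *Srxn1* window (chr2:152105274-152105553, plus strand) held 2 antioxidant and 1 metal response cores, and the second of the 3 windows of *Txnrd1* (chr10:82858956-82859235, plus strand) held 1 antioxidant response core.
Mt1: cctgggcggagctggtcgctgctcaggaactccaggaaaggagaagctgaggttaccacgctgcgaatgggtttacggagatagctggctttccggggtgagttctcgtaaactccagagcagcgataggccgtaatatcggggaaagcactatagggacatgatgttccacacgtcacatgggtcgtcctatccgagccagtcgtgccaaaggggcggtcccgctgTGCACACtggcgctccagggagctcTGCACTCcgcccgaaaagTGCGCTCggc
Mt2: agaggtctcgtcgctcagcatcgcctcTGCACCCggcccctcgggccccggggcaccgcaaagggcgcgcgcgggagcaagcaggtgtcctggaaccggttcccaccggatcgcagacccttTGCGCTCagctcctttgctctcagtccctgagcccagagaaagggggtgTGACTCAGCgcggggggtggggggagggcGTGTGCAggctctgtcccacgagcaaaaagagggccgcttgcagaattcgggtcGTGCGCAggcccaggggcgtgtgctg
Srxn1: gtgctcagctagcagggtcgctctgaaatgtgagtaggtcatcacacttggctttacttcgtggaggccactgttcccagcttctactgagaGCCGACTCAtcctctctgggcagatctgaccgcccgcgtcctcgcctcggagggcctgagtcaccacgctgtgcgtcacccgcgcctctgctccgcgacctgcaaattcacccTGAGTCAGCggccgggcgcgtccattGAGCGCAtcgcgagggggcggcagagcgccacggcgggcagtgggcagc
Txnrd1: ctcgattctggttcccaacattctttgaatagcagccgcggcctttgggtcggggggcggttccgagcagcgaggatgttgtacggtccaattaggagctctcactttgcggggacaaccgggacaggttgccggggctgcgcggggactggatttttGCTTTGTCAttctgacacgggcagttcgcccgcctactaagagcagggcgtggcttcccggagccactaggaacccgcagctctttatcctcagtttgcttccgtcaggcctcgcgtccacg
Such short cores are common. Of 32851 windows of the same length, 24.1% held the metal response core and 26% the antioxidant response core, and 1.73% held 3 or more of the first. The letters of the antioxidant core in *Mt2* and the one at -45 in *Srxn1* also contain those of an AP-1 site, and none of the printed matches overlaps another. *Gclm* held 2 metal response cores and 1 antioxidant response core, which overlap in part. No match was in the windows of *Nqo1*, *Gpx3* and *Sod2* or in the other windows of *Txnrd1*, which says only that these letters are not there. A match is a description of the letters and not of binding.

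None of the 10 genes passed the unpaired test across all genes, and 3 of them (*Nqo1*, *Txnrd1* and *Sod2*) were lower when muscles were paired by number. With edgeR's quasi-likelihood test and Benjamini-Hochberg adjustment over the 15502 genes, 0 of 10 had an adjusted p-value under 0.05 in either direction, while 4.43% of all tested genes were called higher and 1.85% lower in *FRAIL1* muscles. At an unadjusted p-value under 0.05, 5 members (*Nqo1*, *Gclc*, *Gclm*, *Txnrd1* and *Sod2*) were lower and 0 higher, beside 12.5% of all genes lower and 15.2% higher. DESeq2's Wald test called 1 member lower (*Txnrd1*; 6.13% of all genes) and limma voom with quality weights called 2 (*Nqo1* and *Txnrd1*; 5.43%). When the muscle number was kept as a block, so that each *FRAIL1* muscle was set against the Control muscle of its number, edgeR called 3 members lower (*Nqo1*, *Txnrd1* and *Sod2*) and 0 higher, beside 6.62% of all genes lower and 7.48% higher. The same 3 were called by DESeq2's Wald test with the block, beside 9.17% of all genes lower, and by edgeR with the block after both muscles numbered 5 were left out, beside 7.81%. The median log2 fold change was -0.14 over the members and 0.01 over all tested genes, and without both muscles numbered 5 it was -0.06 over the members. For none of the 10 were the 6 *FRAIL1* values all above or all below the 6 Control values, a split that 4.88% of all genes had. Since tissue was sequenced, fewer cells of a type and less RNA per cell cannot be told apart in any of these values.

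**Figure D1:**
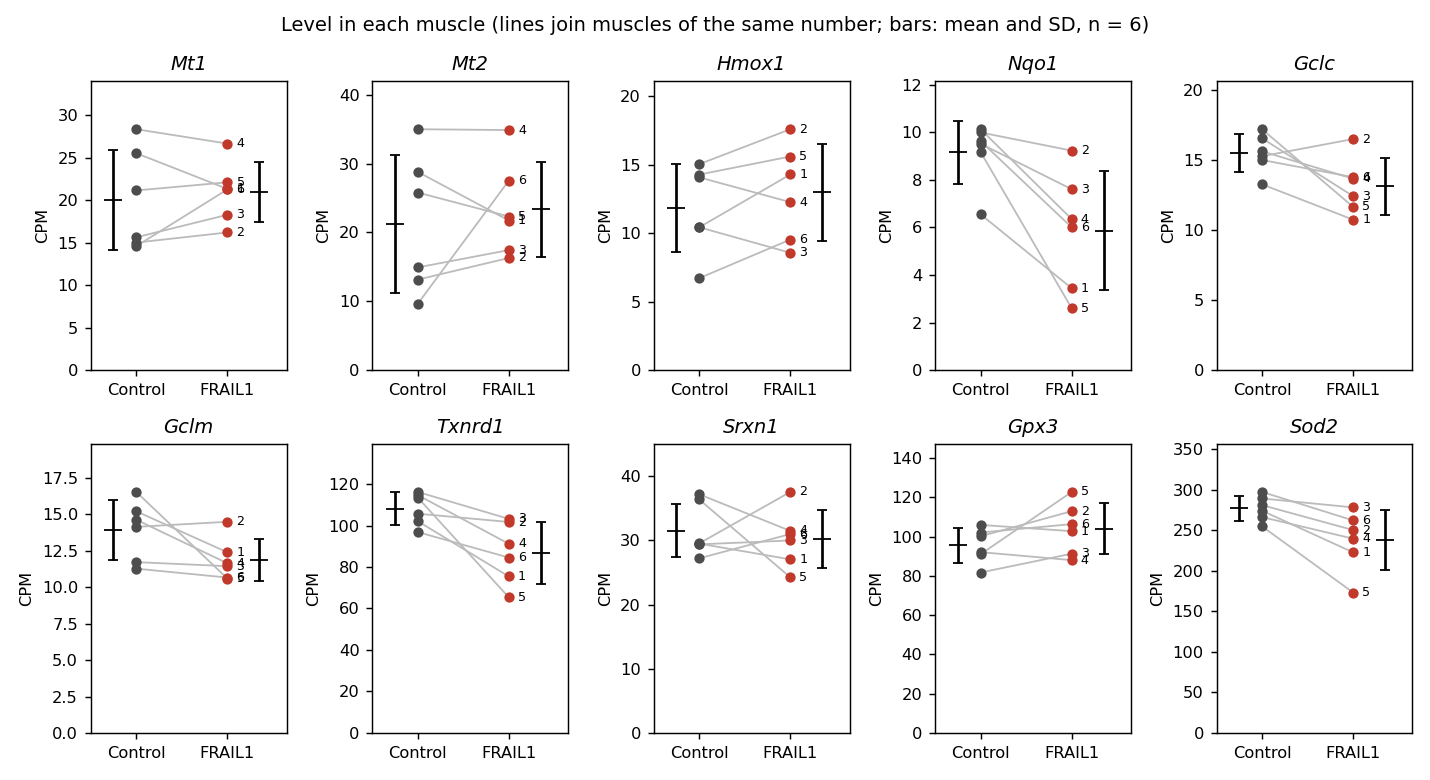
Level of each of the 10 genes in every muscle, in CPM on a linear axis from 0; gray points are Control and red points *FRAIL1* muscles, gray lines join muscles of the same number (printed at the right), and the black bars give the mean and SD of 6 muscles. Control and *FRAIL1* values overlap for every gene, and the lines of *Nqo1*, *Txnrd1* and *Sod2* go down in 6 of 6 numbers.

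*Mt1* (Gene ID 17748; chromosome 8 of GRCm38, 94178883 to 94180327) lay between 14.6 and 28.3 CPM in Control muscles (median 18.4) and between 16.2 and 26.7 CPM in *FRAIL1* muscles (median 21.3). The *FRAIL1* range lay inside the Control range. The means were 20.04 ± 5.91 and 20.97 ± 3.57 CPM (SD, n = 6 each), a log2 fold change of 0.065 ± 0.178 (SE; 95% interval -0.32 to 0.45; adjusted p = 0.845 by edgeR). *Mt2* (Gene ID 17750; chromosome 8, 94172618 to 94173567), its neighbor on the same strand, ran from 9.63 to 35.0 CPM in Control (median 20.4) and from 16.3 to 34.9 CPM in *FRAIL1* muscles (median 22.02). Relative to its mean it was the most variable member among Control muscles, with a mean of 21.2 ± 10.1 CPM against 23.4 ± 6.91 CPM (SD, n = 6 each). Its log2 fold change of 0.14 ± 0.312 (SE; adjusted p = 0.809) had a 95% interval of -0.54 to 0.82, which leaves room for a change of *Mt2* in either direction. The direction of both rests on single muscles: leaving out Control muscle 6 turned the log2 fold change to -0.01 for *Mt1* and -0.01 for *Mt2*, and without *FRAIL1* muscle 4 it was -0.02 and -0.01. Without Control muscle 2 that of *Mt1* was -0.01. An antisense gene, Gm45774, covers 73.6% of the exon bases of *Mt2*, and the sources used here do not say if strand entered the counting.

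The metallothioneins varied together, although in *FRAIL1* muscles the rank correlation did not pass the threshold. Across the 6 Control muscles Pearson's r between the log2 CPM of *Mt1* and *Mt2* was 0.966 (exact permutation p = 0.00278, adjusted over 4 relations 0.0111) and Spearman's rho was 1 (exact permutation p = 0.00278, the smallest that 6 muscles allow; adjusted 0.0111). Without the 2 muscles farthest from the median of *Mt1*, r was 0.952. Across the 6 *FRAIL1* muscles r was 0.931 (exact permutation p = 0.0139, adjusted 0.0278) and rho 0.829 (exact permutation p = 0.0583, adjusted 0.117), and r without the 2 farthest muscles was 0.749. Muscles numbered 4 had the highest *Mt1* and *Mt2* in both groups. The largest gap within a number was in number 6, where *Mt2* went from 9.63 CPM in the Control to 27.5 CPM in the *FRAIL1* muscle. The same check on *Gclc* and *Gclm*, which encode subunits of a single enzyme, gave r = -0.00334 in Control (exact permutation p = 0.969) and r = 0.528 in *FRAIL1* muscles (exact permutation p = 0.292), with rho 0.257 in each (exact permutation p = 0.658; adjusted 0.658).

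**Figure D2:**
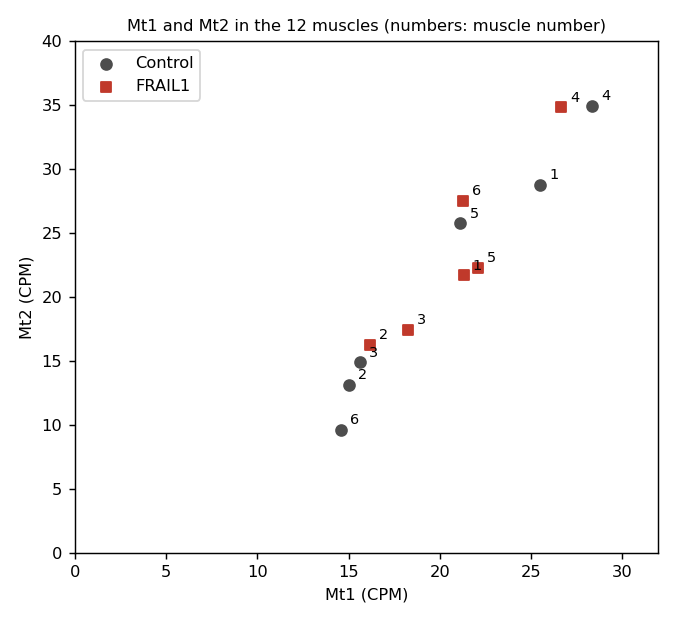
*Mt2* against *Mt1* in the 12 muscles, both in CPM on linear axes from 0; gray circles are Control and red squares *FRAIL1* muscles, with the muscle number beside each. In Control muscles *Mt2* is higher wherever *Mt1* is higher, from muscle 6 (14.6 and 9.63 CPM) to muscle 4 (28.3 and 35.0 CPM). In *FRAIL1* muscles it tends to be, but muscle 6 (21.3 and 27.5 CPM) has less *Mt1* and more *Mt2* than muscle 5 (22.1 and 22.3 CPM).

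*Hmox1* (Gene ID 15368; chromosome 8, 75093618 to 75100593), which degrades heme to biliverdin, iron and carbon monoxide, measured 6.71 to 15.0 CPM in Control muscles (median 12.2) and 8.57 to 17.6 CPM in *FRAIL1* muscles (median 13.3). The ranges overlapped nearly throughout. Its means were 11.8 ± 3.20 and 12.97 ± 3.51 CPM (SD, n = 6 each), and its log2 fold change was 0.13 ± 0.212 (SE; 95% interval -0.33 to 0.59; adjusted p = 0.725 by edgeR). It was higher in 4 of 6 numbers. Macrophages carry much heme oxygenase in injured muscle, and the 12 macrophage markers of the list summed to 259 to 404 CPM in Control and 324 to 822 CPM in *FRAIL1* muscles, none of them at 0. Of these, 0 of 12 were called without the block (7 higher at an unadjusted p-value under 0.05) and 6 of 12 were called higher with the muscle number as a block. Of all tested genes, 4.43% were called higher without the block, 15.2% were higher at that unadjusted p-value and 7.48% were called higher with the block. The part of these cells in the *Hmox1* level was not tested.

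*Nqo1* (Gene ID 18104; minus strand of chromosome 8, 107388225 to 107403205), which reduces quinones by transfer of an electron pair, had the largest fold change of the 10. Control muscles lay between 6.55 and 10.1 CPM with a median of 9.58, and *FRAIL1* muscles between 2.60 and 9.23 CPM with a median of 6.17. The lowest values were those of *FRAIL1* muscles 5 (2.60 CPM) and 1 (3.44 CPM), while Control muscle 1 at 6.55 CPM lay under *FRAIL1* muscles 2 and 3. The mean was 9.17 ± 1.33 CPM in Control and 5.87 ± 2.50 CPM in *FRAIL1* muscles (SD, n = 6 each), a log2 fold change of -0.64 ± 0.255 (SE; 95% interval -1.19 to -0.09; adjusted p = 0.127 by edgeR). With the block it was -0.73 ± 0.190 (SE; adjusted p = 0.035), and *Nqo1* was lower in the *FRAIL1* muscle in 6 of 6 numbers, as 11.7% of all tested genes were. Leaving out *FRAIL1* muscle 2, after which 4.15% of all genes were called lower, gave an adjusted p-value of 0.0481 and a log2 fold change of -0.82. Without *FRAIL1* muscle 5 the values were 0.177 and -0.49, and with the block and without both muscles numbered 5 they were 0.00656 and -0.53.

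*Gclc* (Gene ID 14629; chromosome 9, 77754535 to 77794489) encodes the catalytic subunit of the enzyme that limits glutathione synthesis. It measured 13.3 to 17.2 CPM in Control muscles (median 15.5) and 10.8 to 16.5 CPM in *FRAIL1* muscles (median 13.1). *FRAIL1* muscle 2 was the highest of its group and above 4 of the Control muscles. Its mean was 15.5 ± 1.37 against 13.2 ± 2.03 CPM (SD, n = 6 each), with a log2 fold change of -0.24 ± 0.0973 (SE; adjusted p = 0.129 by edgeR, 0.0758 with the block). Without *FRAIL1* muscle 2 the log2 fold change was -0.32 and the adjusted p-value 0.035. *Gclm* (Gene ID 14630; chromosome 3, 122245487 to 122267215), the modifier subunit, ran from 11.3 to 16.6 CPM in Control (median 14.4) and from 10.6 to 14.5 CPM in *FRAIL1* muscles (median 11.6). Its log2 fold change was -0.23 ± 0.104 (SE; adjusted p = 0.167 by edgeR, 0.114 with the block), and 0 of 24 alternative settings called it. Each subunit was lower in 5 of 6 numbers. Other genes overlap part of *Gclm*, a pseudogene on its strand over 8.80% and a transcript on the opposite strand over 10.7% of its exon bases.

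*Txnrd1* (Gene ID 50493; chromosome 10, 82833951 to 82897724), the cytosolic selenoenzyme that keeps thioredoxin reduced, came nearest to a call. Its level was 96.9 to 116 CPM in Control muscles (median 109.6) and 65.3 to 103 CPM in *FRAIL1* muscles (median 87.8). *FRAIL1* muscles 2 and 3 lay among the Control values, and the other 4 lay under all of them. The means were 108.2 ± 7.82 and 86.9 ± 14.9 CPM (SD, n = 6 each), a log2 fold change of -0.32 ± 0.0998 (SE; 95% interval -0.53 to -0.10; adjusted p = 0.0657 by edgeR). With the block it was -0.33 (adjusted p = 0.0311), and *Txnrd1* was lower in 6 of 6 numbers. It was called in 7 of 24 alternative settings, among them without *FRAIL1* muscle 2 (adjusted p = 0.035) and without *FRAIL1* muscle 3 (adjusted p = 0.0268; 5.65% of all genes lower). Without *FRAIL1* muscle 5 its log2 fold change was -0.25 (adjusted p = 0.0751), and with the block and without both muscles numbered 5 it was -0.24 (adjusted p = 0.0105).

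*Srxn1* (Gene ID 76650; chromosome 2, 152105524 to 152111376) encodes sulfiredoxin, which repairs overoxidized peroxiredoxins, and its window above carries the most antioxidant response cores of the 8. It lay between 27.2 and 37.2 CPM in Control muscles (median 29.5) and between 24.2 and 37.5 CPM in *FRAIL1* muscles (median 30.5), so the Control range lay inside that of *FRAIL1*. Its log2 fold change was -0.061 ± 0.103 (SE; 95% interval -0.28 to 0.16; adjusted p = 0.738 by edgeR), and it was 0.04 without both muscles numbered 5. *Srxn1* was lower in 3 of 6 numbers.

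*Gpx3* (Gene ID 14778; chromosome 11, 54902854 to 54910387), a secreted selenoprotein that removes peroxides, was measured at 81.7 to 106 CPM in Control (median 96.2) and 88.0 to 123 CPM in *FRAIL1* muscles (median 104.6). Of the members, it was the only one with its highest *FRAIL1* value in muscle 5. Its log2 fold change was 0.12 ± 0.0861 (SE; 95% interval -0.06 to 0.31; adjusted p = 0.370 by edgeR), and no setting called it.

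*Sod2* (Gene ID 20656; chromosome 17, 13007839 to 13018119), the manganese superoxide dismutase of the mitochondrial matrix, ran from 255 to 297.5 CPM in Control muscles (median 277.7) and from 173 to 278 CPM in *FRAIL1* muscles (median 245). *FRAIL1* muscle 5 was lowest, and *FRAIL1* muscles 3 and 6 lay among the Control values. Its means of 277.3 ± 15.5 and 237.8 ± 36.9 CPM (SD, n = 6 each) gave a log2 fold change of -0.22 ± 0.0943 (SE; 95% interval -0.42 to -0.02; adjusted p = 0.144 by edgeR). With the block it was -0.24 (adjusted p = 0.0452), and *Sod2* was lower in 6 of 6 numbers. Without both muscles numbered 5 the block gave -0.17 (adjusted p = 0.0247). The genes of the mitochondrial genome took 9.12 to 11.4% of the counts in Control and 6.58 to 9.90% in *FRAIL1* muscles, with the lowest share in *FRAIL1* muscle 5, and their part in the *Sod2* level was not tested.

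**Figure D3:**
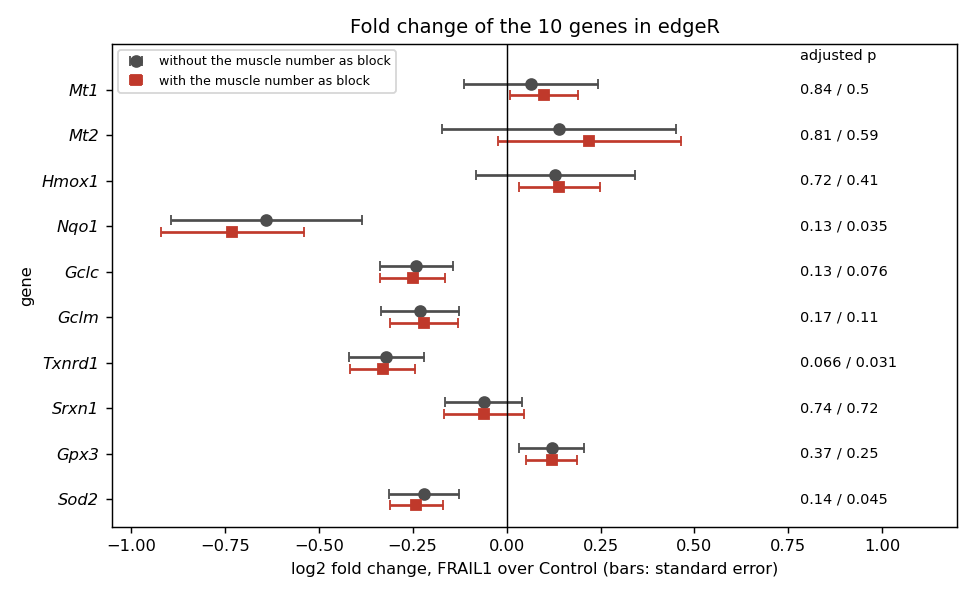
Log2 fold change (*FRAIL1* over Control) of the 10 genes with its standard error, from edgeR without a block (gray circles) and with the muscle number as a block (red squares), and the adjusted p-values of each at the right. The bars of *Nqo1*, *Gclc*, *Gclm*, *Txnrd1* and *Sod2* lie left of 0 in both fits, and the adjusted p-value is under 0.05 only with the block, for *Nqo1* (0.035), *Txnrd1* (0.031) and *Sod2* (0.045).

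The size of the differences varied from one muscle number to the next. In number 4, 10 of 10 members were lower in the *FRAIL1* muscle (*Mt2* only from 34.98 to 34.86 CPM), in number 1 it was 9, and in number 2 it was 3. Number 5 had the lowest median over the 10 (-0.56), with differences in log2 CPM of -1.80 for *Nqo1*, -0.80 for *Txnrd1* and -0.64 for *Gclm*. In number 2 the median was 0.11, with *Nqo1* at -0.11 and *Txnrd1* at -0.06. *FRAIL1* muscle 5 was the lowest of its group for 5 members and *FRAIL1* muscle 2 the highest for 5. The members of a muscle share its library, so these counts are not independent. The share of all tested genes that were lower within each number was not computed. The counts and medians per number therefore do not show whether the members differed from other genes of the same muscles. Whether levels in the Control and *FRAIL1* muscles of a number went together was also computed for each of the 10 genes, a choice made after the values were seen. *Sod2* had the highest r (0.875, exact permutation p = 0.0278, adjusted over 10 relations 0.278; rho 0.886, exact permutation p = 0.0333, adjusted 0.333; r without the 2 farthest muscles 0.770), and no relation passed the threshold after adjustment.

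**Figure D4:**
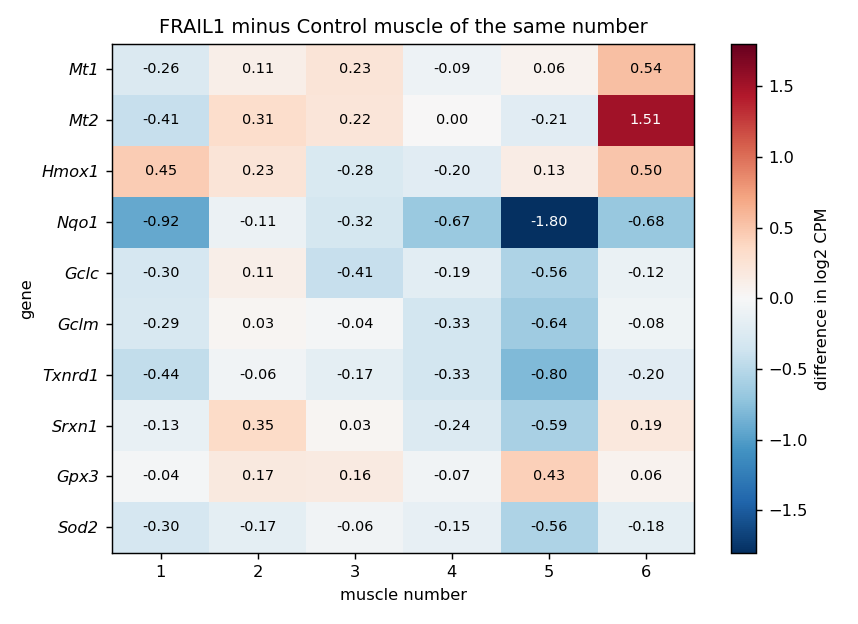
Difference in log2 CPM between the *FRAIL1* and the Control muscle of the same number for each gene (rows) and number (columns); blue is lower and red is higher in the *FRAIL1* muscle, with the value printed in each field. The rows of *Nqo1*, *Txnrd1* and *Sod2* are blue throughout, the most negative value is that of *Nqo1* in number 5 at -1.80, and the most positive is *Mt2* in number 6 at 1.51.

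Around the metallothioneins, 26 of the 29 genes of zinc and metal handling (zinc exporters and importers, copper transport, *Mt3* and *Mtf1*) were tested, and 1 rose and 0 fell (edgeR, adjusted p under 0.05; at unadjusted p 2 were higher and 2 lower; 0.02 median log2 fold change). With the block 1 rose and 2 fell, the zinc exporter *Slc30a2* (log2 fold change -0.57, adjusted p = 0.0418) and *Slc30a9* (log2 fold change -0.24, adjusted p = 0.0232). The gene that rose in both fits was the third metallothionein, *Mt3*, best known from brain. It went from 8.51 to 14.7 CPM in Control to 14.2 to 25.9 CPM in *FRAIL1* muscles, with 11.7 ± 2.41 against 19.7 ± 4.78 CPM (SD, n = 6 each) and a log2 fold change of 0.76 ± 0.170 (SE; adjusted p = 0.0248). The groups overlapped only at their ends, and *Mt3* was higher in 6 of 6 numbers, as 11.5% of all genes were. It was called in 20 of 24 alternative settings and in 9 of the 12 fits that left out a muscle, with adjusted p-values up to 0.0547. The metal-sensing factor *Mtf1* measured 22.1 ± 0.849 and 20.4 ± 1.57 CPM (log2 fold change -0.12, adjusted p = 0.213). Whether the fold change of *Mt3* differs from those of *Mt1* and *Mt2* was not tested.

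Of 13 regulators of NRF2, 0 rose and 1 fell, and the median log2 fold change was -0.15. With the block 2 fell, *Keap1* and *Cul3*, the ubiquitin ligase scaffold that KEAP1 brings to NRF2 (log2 fold change -0.33, adjusted p = 0.0130, lower in 6 of 6 numbers; adjusted p = 0.0606 without the block). *Keap1*, which marks NRF2 for degradation, fell from 91.5 ± 4.27 to 71.4 ± 10.9 CPM (SD, n = 6 each), a log2 fold change of -0.36 ± 0.0912 (SE; adjusted p = 0.0348 by edgeR). Its 6 *FRAIL1* values (50.7 to 81.6 CPM) all lay under the 6 Control values (85.4 to 96.2 CPM), and 4.88% of all tested genes had groups that did not overlap. The call was kept in 4 of the 12 fits that left out a muscle, and without *FRAIL1* muscle 5 the log2 fold change was -0.28. *Nfe2l2* itself was at 32.5 ± 0.900 and 34.5 ± 3.22 CPM (log2 fold change 0.087, adjusted p = 0.370), and the repressor *Bach1* at 26.9 ± 2.96 and 24.0 ± 1.90 CPM (log2 fold change -0.17, adjusted p = 0.171).

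The 22 tested of 25 other NRF2 targets went in both directions: 3 rose and 3 fell, with a median log2 fold change of -0.02. The aldo-keto reductase *Akr1b8* rose most, from 2.55 ± 0.465 to 5.68 ± 1.72 CPM (SD, n = 6 each; log2 fold change 1.15 ± 0.188 (SE), adjusted p = 0.00466 by edgeR). The prostaglandin reductase *Ptgr1* rose from 3.15 ± 0.390 to 5.61 ± 1.68 CPM (log2 fold change 0.83, adjusted p = 0.0151), and *Pgd*, a NADPH-forming enzyme of the pentose phosphate pathway, from 26.0 ± 2.41 to 33.9 ± 4.15 CPM (log2 fold change 0.38, adjusted p = 0.0196). For these 3 the groups did not overlap, a split that 4.88% of all tested genes had, and each was called in 24 of 24 alternative settings. *Osgin1*, an oxidative stress-induced growth inhibitor, fell from 10.9 ± 1.74 to 7.10 ± 1.58 CPM (log2 fold change -0.62, adjusted p = 0.0296), and the export pump *Abcc4* from 26.3 ± 1.79 to 19.8 ± 3.80 CPM (log2 fold change -0.41, adjusted p = 0.0466). The glutathione transferase *Gsta3* fell at a very low level, from 0.384 ± 0.146 to 0.103 ± 0.0796 CPM (log2 fold change -1.89, adjusted p = 0.0397), and reads of the *Gsta* family may be split between its similar members. The groups of *Osgin1* did not overlap either (9.59 to 14.1 against 4.13 to 8.74 CPM), while those of *Abcc4* and *Gsta3* did. These 3 falls (*Osgin1*, *Abcc4* and *Gsta3*) were called in 18 of 24, 14 of 24 and 12 of 23 alternative settings. With the block 3 rose and 3 fell as well, but *Osgin1* lost its call (adjusted p = 0.0516) and the NADPH-forming malic enzyme *Me1* gained one (log2 fold change -0.72, adjusted p = 0.0282). The groups of *Me1* did not overlap (146 to 177 CPM in Control and 51.6 to 139 CPM in *FRAIL1* muscles).

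Of 30 tested genes of the glutathione system 2 rose and 0 fell, the cytosolic peroxidase *Gpx1* (log2 fold change 0.45 ± 0.125 (SE), adjusted p = 0.0483 by edgeR) and the transferase *Gsto1* (log2 fold change 0.31 ± 0.0781 (SE), adjusted p = 0.0342), while 3 fell with the block. Of 18 thioredoxin and peroxiredoxin genes, the peroxiredoxin of the endoplasmic reticulum *Prdx4* rose (log2 fold change 0.51, adjusted p = 0.0327) and the methionine sulfoxide reductase *Msrb3* fell (log2 fold change -0.44, adjusted p = 0.0267). With the block 1 of that list rose and 2 fell, the second being the thioredoxin inhibitor *Txnip* (log2 fold change -0.33, adjusted p = 0.0343). The 15 tested genes of superoxide and peroxide handling and of reactive oxygen sources had a median log2 fold change of 0.34, and 2 rose and 0 fell. Those were the extracellular superoxide dismutase *Sod3* (15.0 ± 1.09 to 20.4 ± 3.90 CPM; log2 fold change 0.45, adjusted p = 0.0291) and *Ccs*, the copper chaperone of SOD1 (13.6 ± 1.098 to 17.3 ± 1.29 CPM; log2 fold change 0.34, adjusted p = 0.0157). With the block 5 rose and 1 fell. The 3 rises that the block added were genes of NADPH oxidases, *Cybb* (log2 fold change 0.56, adjusted p = 0.0388), *Ncf1* (0.53, adjusted p = 0.0137) and *Nox4* (0.61, adjusted p = 0.0405), the first 2 of which phagocytes use. The macrophage marker sums given with *Hmox1* bear on the same comparison, and the part of these cells was not tested.

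Of 25 tested genes of heme and iron, *Hfe* (log2 fold change 0.21, adjusted p = 0.0348) and the scavenger receptor *Lrp1* (log2 fold change 0.40, adjusted p = 0.0348) rose and the heme synthesis enzyme *Cpox* fell (log2 fold change -0.30, adjusted p = 0.0424, edgeR). With the block 4 rose and 3 fell. Of 18 genes of selenoprotein synthesis and other selenoproteins, *Pstk*, the kinase of selenocysteine synthesis, fell (log2 fold change -0.20, adjusted p = 0.0462) and 0 rose. With the block 1 rose, *Selenon* (log2 fold change 0.43, adjusted p = 0.0314), and 3 fell, *Pstk*, *Selenow* (log2 fold change -0.32, adjusted p = 0.0495) and *Sephs1* (log2 fold change -0.24, adjusted p = 0.0248). Of 18 glucocorticoid-responsive genes, *Zbtb16* fell (log2 fold change -0.40 ± 0.0882 (SE), adjusted p = 0.0208) and 0 rose. Under the block 1 rose, *Angptl4* (log2 fold change 0.69, adjusted p = 0.0290), and 5 fell. Those 5 were *Zbtb16*, *Pdk4* (-0.31, adjusted p = 0.0199), *Klf9* (-0.22, adjusted p = 0.0277), *Fkbp5* (-0.41, adjusted p = 0.0313) and *Tsc22d3* (-0.38, adjusted p = 0.0468). The medians of these 3 lists were -0.01, -0.08 and -0.08. Apart from *Akr1b8*, *Ptgr1*, *Pgd* and *Ccs*, each gene called in these 9 lists lost its call in at least 1 of the 12 fits that left out a muscle, with adjusted p-values there of up to 0.0969 (*Gpx1*). Without *FRAIL1* muscle 5 the calls lost were those of *Gpx1* (adjusted p = 0.0864), *Lrp1* (0.0544) and *Pstk* (0.0654). With both muscles numbered 5 left out, the glutathione list had 0 genes higher and 1 lower, and the selenoprotein list 0 in either direction. No list was tested as a set. Its counts without the block stand beside the 4.43% of all genes called higher and 1.85% called lower. Its counts with the block stand beside 7.48% higher and 6.62% lower.

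**Figure D5:**
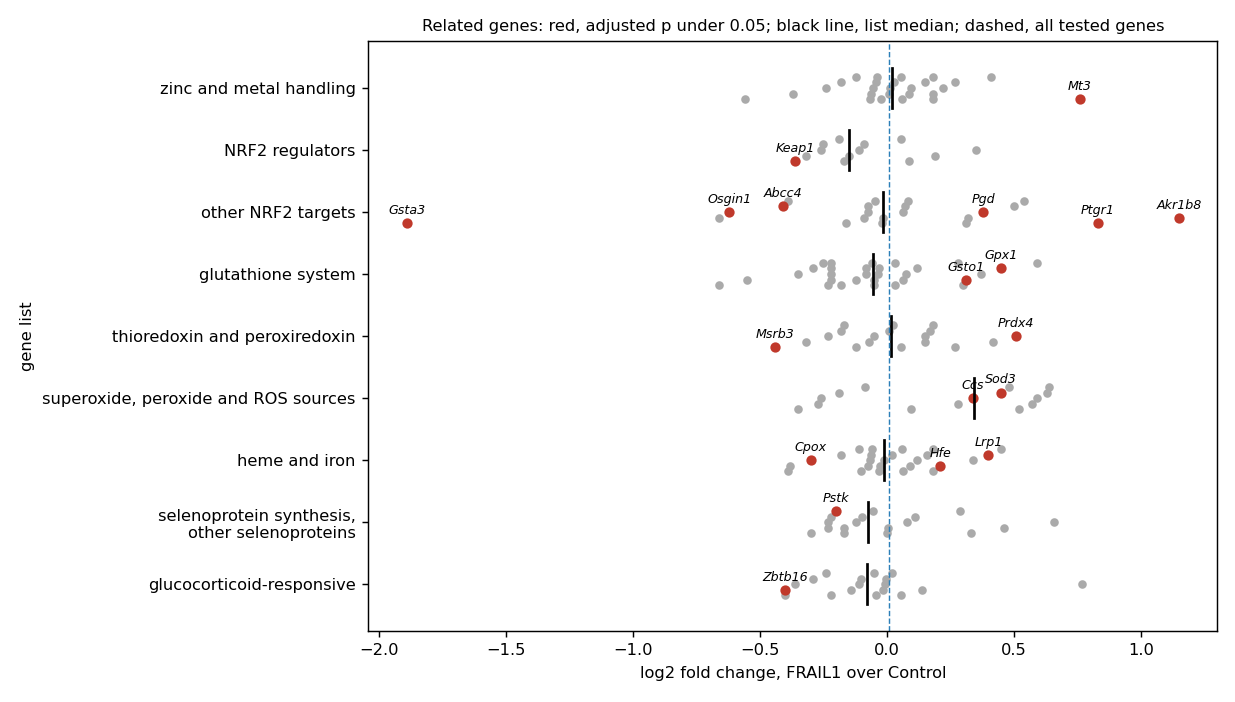
Log2 fold change (*FRAIL1* over Control) of each tested gene in 9 lists of related genes, 1 row a list; red points, with names, have an adjusted p-value under 0.05, gray points do not, the black line is the list's median and the dashed line that of all tested genes. Called genes stand on both sides of 0, and *Akr1b8* (1.15) and *Gsta3* (-1.89) stand farthest out.

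Markers of other cells were summed in the same muscles. Of 11 marker lists, 9 had 0 genes called by edgeR without the block. At an unadjusted p-value under 0.05, however, the macrophage list had 7 genes higher, the fibroblast list 4 and the satellite cell list 3, beside 15.2% of all genes. Of all tested genes, 4.43% were called higher and 1.85% lower without the block, and 7.48% and 6.62% with it. The 4 satellite cell markers, of the stem cells of muscle, summed to 26.3 to 40.1 CPM in Control and 34.2 to 50.3 CPM in *FRAIL1* muscles. *Myod1* weighs most in these sums, with a Control mean of 27.98 CPM. The Control means of the others were 2.40 CPM for *Pax7*, 1.69 CPM for *Myf5* and 0.514 CPM for *Calcr*. With the block 3 of 4 rose, *Pax7* (adjusted p = 0.0345), *Myf5* (adjusted p = 0.0486) and *Myod1* (adjusted p = 0.0107). Of the macrophage markers with most counts, *Lyz2* measured 114 ± 22.4 and 194 ± 93.1 CPM (SD, n = 6 each; adjusted p = 0.107, 0.0396 with the block) and *C1qa* 57.2 ± 11.2 and 92.9 ± 28.6 CPM (adjusted p = 0.0595, 0.0105 with the block). The 7 fibroblast markers summed to 941 to 1792 CPM in Control and 1902 to 4911 CPM in *FRAIL1* muscles, highest in muscle 5, with 0 of 7 called. Those with most counts, which weigh most in these sums, were *Col3a1* (log2 fold change 0.82, adjusted p = 0.0671) and *Col1a1* (log2 fold change 1.04, adjusted p = 0.0522). Of the others, *Lum* (0.75, adjusted p = 0.102), *Pdgfra* (0.44, adjusted p = 0.0662) and *Dpt* (0.30, adjusted p = 0.388) had positive log2 fold changes. *Dcn* was nearly level (0.019, adjusted p = 0.948) and *Pi16* lower (-0.14, adjusted p = 0.777). Without *FRAIL1* muscle 5 the highest *FRAIL1* sum was 2347 CPM, and the log2 fold change was 0.51 for *Col3a1* (adjusted p = 0.0572) and 0.68 for *Col1a1* (adjusted p = 0.0309). Of 9 endothelial markers 2 fell (4 with the block), and their sums were 510 to 606 CPM against 415 to 517 CPM, with *Cdh5* (log2 fold change -0.18, adjusted p = 0.188) and *Pecam1* (log2 fold change -0.15, adjusted p = 0.204) the most abundant. Of 8 fiber markers 1 fell (2 with the block), *Ckm* (log2 fold change -0.38, adjusted p = 0.0482). The most abundant were *Atp2a1* (log2 fold change -0.27, adjusted p = 0.107) and *Myh4* (log2 fold change -0.43, adjusted p = 0.0548, 0.0328 with the block). *Myh4* was lower in 6 of 6 numbers, as 11.7% of all genes were, and its groups did not overlap, as for 4.88% of all genes. No marker of these 5 lists was at 0. The part of any of these cells in the levels of the 10 genes was not tested.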

How the data were processed

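The authors trimmed paired-end reads with Trimmomatic, mapped them to mm10 with STAR 2.7.8a and deposited raw counts per gene made with featureCounts 2.0.1. The counts are whole numbers without normalization, listed by NCBI Gene ID; 25275 of 27179 IDs were matched to a symbol, and the others held 0.280% of the counts. Whether counting used strand is not given in the sources used here. There were 0 columns of no sample. No library was a copy of another of its own group (chi-square per degree of freedom 15.4 or more between any pair within a group). Pairs of a Control and a *FRAIL1* library were not compared in this way. Intervals and errors are over muscles.

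Genes were filtered with filterByExpr, scaled with TMM and compared by quasi-likelihood F-tests in edgeR 4.0.16, with robust estimation (R 4.3.3) over 15502 genes, at a Benjamini-Hochberg adjusted p-value under 0.05. CPM values use TMM library sizes. The standard error is the log2 fold change over the square root of F. Correlations used log2 CPM with a prior count of 2 and exact two-sided permutation tests. Alternatives were the muscle number as a block, DESeq2 1.42.0 size factors and Wald test with and without the block, upper-quartile scaling, TMM without mitochondrial genes and the 20 genes with most counts, no filter, 10 counts in every muscle, omission of any single muscle, limma 3.58.1 voom with quality weights and a fit that was not robust. Leaving out both muscles numbered 5 was chosen after seeing the data. Scripts were tested on simulated data. Copies of the members' transcripts (98% identity over 100 bases) were searched with BLAST 2.17.0. *Mt2* shared a stretch with Gm45774, the antisense gene that overlaps it. *Gclm* shared a part with *Ppia* and other genes, among them Gm17494 and Gm6061, which overlap *Gclm*.

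Both groups carry the numbers 1 to 6. The study transfected both legs of each of 6 mice, but the labels do not state that a number is a mouse. Deviations of the same-numbered muscles from their group means correlated at 0.0547 to 0.282, over 0.1 for 5 of 6 numbers; 'block' refers to these numbers.

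The members and the lists were chosen with earlier results of these data known. Named besides the members were up to 4 called genes in each direction of each list, *Nfe2l2*, *Keap1*, *Bach1* and *Mtf1*, and the 2 markers with most counts in a list described. The genes *Ckm*, *Cybb*, *Ncf1*, *Nox4*, *Slc30a2*, *Slc30a9*, *Cul3*, *Me1*, *Txnip*, *Selenon*, *Selenow*, *Sephs1*, *Angptl4*, *Pdk4*, *Klf9*, *Fkbp5*, *Tsc22d3*, *Pax7*, *Myf5*, *Myod1*, *Calcr*, *Lum*, *Pdgfra*, *Dpt*, *Dcn* and *Pi16* were named after their values were seen. Promoter windows came from RefSeq (GRCm38.p6, the same assembly as mm10). No protein sequence and no level per transcript length was used.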

Additional observations from a re-analysis of the deposited data

Results flagged for a closer look

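Within Control, *Nqo1* in muscle 1 stood apart at 6.55 CPM. On the log2 CPM scale, its gap to the next lowest muscle (9.17 CPM) was 0.771 of the whole range of the group, above Dixon's 95% critical value for 6 samples. Chance flags about 1 in 20 groups, and 20 groups (10 genes in 2 groups) were looked at, of which 1 was flagged. *Nqo1* was also second lowest in the *FRAIL1* muscle of the same number, at 3.44 CPM.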

How the results depend on the processing

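Of 240 recomputed fold changes of the 10 genes (24 settings each), 217 kept their direction and their side of the threshold, 16 were past it where the reported one was not, and 7 changed sign: *Mt1* without Control muscle 2 (-0.01), Control muscle 6 (-0.01) and *FRAIL1* muscle 4 (-0.02), *Mt2* without Control muscle 6 (-0.01) and *FRAIL1* muscle 4 (-0.01), and *Srxn1* after omission of both number 5 muscles (0.04, and 0.04 under the block). Over the fits that left out 1 muscle, the log2 fold change ranged from -0.02 to 0.19 for *Mt1* and from -0.01 to 0.34 for *Mt2*. The cause was not tested. No member was called higher in any setting. Members called lower numbered 3 with the replicate block, 2 with limma voom, 1 with DESeq2's Wald test, 3 with that test and the block, 3 without both muscles numbered 5 with the block, and 0 to 3 when 1 muscle was left out.

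Genes called higher and lower over the whole table numbered 687 and 287. Pairing muscles by number in the replicate block gave 1159 and 1027, DESeq2's Wald test 1281 and 951, the same with the block 1476 and 1422, and the block without both muscles numbered 5 gave 1093 and 1212. No filter gave 184 lower, limma voom 842 lower, and leaving out 1 muscle 314 to 1228 higher and 50 to 882 lower, lowest without *FRAIL1* muscle 1 and highest without *FRAIL1* muscle 3. Over the 9 lists, 277 of 432 counts of called genes stayed within 1.5 times the reported one. Beside the changes given, the block changed no call of a member, and of the genes called in the 9 lists it ended that of *Osgin1* only. How far depth limits the calls of genes at low levels, such as *Gsta3*, was not tested.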
